A study of Homo sapiens with 20 samples.

Results

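The MYC, MAX and MXD network was examined in NGP neuroblastoma cells treated with nutlin-3 or with vehicle. The 10 members were chosen by gene name: MYC, MYCL, MAX, MXD1, MXD3, MXD4, MXI1, MNT, MLX and MGA. MYCN, the MYC family gene that is amplified in NGP cells, is not among them and is given only for scale. All 10 members were among the 27697 genes tested, which were the protein-coding and lncRNA genes with at least 1 estimated count in each condition.

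Proteins of the network carry a basic helix-loop-helix leucine zipper and bind DNA in pairs. MAX is the shared partner: with MYC, MYCN or MYCL it activates genes from the E-box, and with an MXD protein, MNT or MGA it occupies the same site and represses them, in the case of MXD and MNT through SIN3 and its histone deacetylases. MLX forms a parallel pool with MLXIP and MLXIPL, and can also pair with MXD1, MXD4 and MNT. In cycling cells MYC and MXD3 are usually abundant, while MXD1 and MXD4 are known for their expression in cells that leave the cycle to differentiate.

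NGP is an established human neuroblastoma cell line. In each condition 10 biological replicates were sequenced as poly(A)+ RNA in read pairs. One group received nutlin-3, a small molecule inhibitor of MDM2, as an 8 µM racemic mixture, and the other received the vehicle, ethanol. The time of treatment is not given in the sources used here, and all samples come from 1 cell line. Estimated counts per sample summed to between 14455477 and 19532971 in the vehicle group and to between 15078052 and 17442896 in the nutlin group. All 11 adrenergic neuroblastoma markers reported, TH, DBH and CHGA among them, were above 1 TPM (kallisto's level per transcript length and library size) in every sample. Their summed level was 3075 to 3564 TPM in the vehicle and 3679 to 4635 TPM in the nutlin samples. Of those 11, 5 rose, 5 fell and DBH did not pass the test after nutlin. Of 13 markers of other cell types, 7 stayed below 1 TPM in every sample and CD3E was at 0 throughout, while the summed level of the 13 was 5.83 to 11 TPM in the vehicle and 10.7 to 16.2 TPM in the nutlin samples, of which COL1A1, EPCAM and PECAM1 rose and LUM and VWF fell among the 10 tested. Their part in the results below was not tested. In the same fit CDKN1A, a CDK inhibitor, and MDM2 rose by 5.68 and 4.51 on the log2 scale, and the proliferation marker MKI67 fell by 2.87.

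After nutlin, MYC, MXD1 and MXD4 rose, MXD3 fell by more than any other member, and MXI1, MNT and MLX fell slightly. In numbers, 3 of the 10 members were significantly differentially expressed (SDE) upwards and 5 downwards at 5% FDR by edgeR's quasi-likelihood test, with MAX among the latter. MYCL and MGA did not pass the test. Across all genes tested 58.8% were SDE, 32.3% upwards and 26.5% downwards. Among the 15168 genes that averaged 1 CPM or more (counts scaled to the library size) 80.2% were SDE, 34.8% upwards and 45.3% downwards, so that 8 members called of 10 is the share seen in expressed genes at large. For 4 members, MYC, MXD1, MXD3 and MXD4, the log2 fold change (LFC, nutlin over vehicle) was above 1 in size. The median LFC of the members was −0.03, beside 0.19 over all genes and −0.08 over those that averaged 1 CPM or more. In 6 members the CPM values of the 2 groups did not overlap, which held for 28.8% of all genes. That share includes the genes below 1 CPM, whereas each member averaged more. The share among expressed genes alone was not determined, so no excess can be read from the 6. By CPM, MYC, MXD1 and MXD4 were higher in every nutlin sample, and MXD3, MNT and MLX lower. The CPM values also carry TMM factors, which adjust the library sizes. These were 0.88 to 0.97 in the vehicle and 1.01 to 1.10 in the nutlin samples. Small changes therefore depend on this scaling, and the members were not tested without it. In bulk samples like these, fewer cells that express a gene and less of its RNA per cell cannot be told apart.

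**Figure D1:**
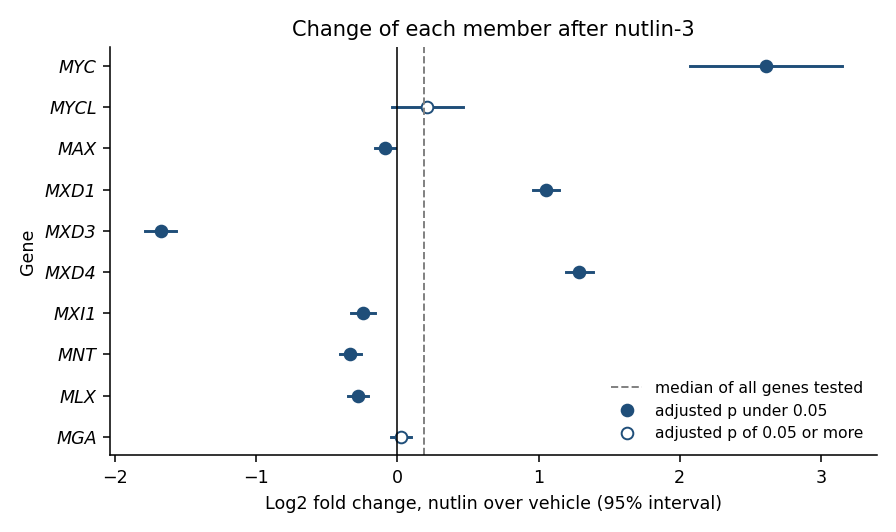
LFC of each member (nutlin over vehicle) from the edgeR quasi-likelihood fit over 10 vehicle and 10 nutlin samples, with an approximate 95% interval formed from the LFC and its SE. Filled points passed 5% FDR, open points did not, and the dashed line marks the median of all genes tested, 0.19. MYC, MXD4 and MXD1 lie to the right of 1 and MXD3 to the left of −1.

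The E-box read by MYC-MAX and MXD-MAX pairs has the core CACGTG, which reads the same on both strands. It was searched in the RefSeq promoter windows of GRCh38.p14, each 300 bases long, from 250 bases before to 50 bases after a start site. It was found in 7.26% of all 35116 windows. All members but MYC were looked up, and 3 of the 14 windows of these 9 held it, 1 each of MXD4, MNT and MLX. These 3 windows are shown with the core in capitals, beside the window of MXD1, which rose together with MXD4 but whose window does not hold these 6 letters. A match is a description of the letters, not a sign of binding. MXD4 is transcribed from the minus strand of chr4:2262060-2262359, with the core starting at −238 from the start site. MNT lies on the minus strand of chr17:2401011-2401310, its core at −193. MLX lies on the plus strand of chr17:42566850-42567149, its core at −50, and MXD1 on the plus strand of chr2:69914859-69915158. Of the members whose windows are not shown, the genes lie at chr1:39895428-39902256 (MYCL, minus strand), chr14:65006174-65102695 (MAX, minus), chr5:177301461-177312757 (MXD3, minus), chr10:110207605-110287365 (MXI1, plus) and chr15:41621134-41773081 (MGA, plus) in GENCODE release 44.
MXD4: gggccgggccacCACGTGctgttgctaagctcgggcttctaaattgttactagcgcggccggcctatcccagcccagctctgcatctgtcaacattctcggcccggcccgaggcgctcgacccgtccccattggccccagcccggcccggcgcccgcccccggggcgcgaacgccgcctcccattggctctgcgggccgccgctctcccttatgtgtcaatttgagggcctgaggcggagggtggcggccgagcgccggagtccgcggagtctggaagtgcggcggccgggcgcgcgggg
MNT: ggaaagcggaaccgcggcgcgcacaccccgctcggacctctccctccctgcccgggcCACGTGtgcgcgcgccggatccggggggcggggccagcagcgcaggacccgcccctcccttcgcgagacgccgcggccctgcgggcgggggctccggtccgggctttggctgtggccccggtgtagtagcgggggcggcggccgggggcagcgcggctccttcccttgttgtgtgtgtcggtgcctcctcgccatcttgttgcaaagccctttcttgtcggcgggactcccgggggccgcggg
MLX: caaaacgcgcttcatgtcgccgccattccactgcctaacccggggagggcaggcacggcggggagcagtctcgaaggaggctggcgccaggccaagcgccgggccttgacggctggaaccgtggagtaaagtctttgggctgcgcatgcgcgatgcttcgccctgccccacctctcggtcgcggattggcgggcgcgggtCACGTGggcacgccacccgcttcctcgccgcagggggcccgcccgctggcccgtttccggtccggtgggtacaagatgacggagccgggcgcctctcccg
MXD1: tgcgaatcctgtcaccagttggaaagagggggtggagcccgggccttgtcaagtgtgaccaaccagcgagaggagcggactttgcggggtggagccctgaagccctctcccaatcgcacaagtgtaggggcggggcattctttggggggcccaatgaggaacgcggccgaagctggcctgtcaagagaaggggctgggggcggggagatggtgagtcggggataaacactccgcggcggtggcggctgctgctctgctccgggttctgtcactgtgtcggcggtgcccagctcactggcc

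MYC, the founding activator of the network, was close to the limit of detection in vehicle-treated NGP cells. Its estimated counts there were 5 at the lowest, 9.50 at the median and 15 at the highest, and after nutlin 15.3, 65.5 and 99.0. As CPM, scaled by the TMM factors, these were 0.31, 0.62 and 0.90 in vehicle and 0.94, 4.24 and 6.12 after nutlin. The groups did not overlap, but only by a little: nutlin replicate 1 lay just above the highest vehicle sample, and nutlin replicate 8, at 1.54 CPM, was the next lowest. The other 8 nutlin samples were at 2.41 CPM or more. The transcript MYC-206 held 100% of the MYC counts in nutlin replicate 1, 72.1% in replicate 8 and 23.3% in replicate 6. In every other sample it held at most 0.08%, and most counts lay on MYC-201, MYC-202 and MYC-205. How far this assignment bears on the total of the gene was not tested. The fitted rise was 6.11-fold (LFC 2.61 ± 0.27 SE, adjusted p = 8.99e-10, edgeR quasi-likelihood test with Benjamini-Hochberg adjustment), with a 95% interval of the LFC from 2.07 to 3.15. On the TPM scale the groups overlapped, at 0.19 to 0.47 TPM in vehicle and 0.47 to 2.85 TPM after nutlin. MYC also had the highest coefficient of variation of CPM of all members, 30.1% in vehicle and 43.2% after nutlin. Counting error is large at the 5 to 15 counts of the vehicle samples, and its part in these values was not tested.

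MYCL, the third MYC family gene, was low in both conditions. It was at 2.54, 4.02 and 5.69 CPM in vehicle (lowest, median and highest) and at 3.28, 4.51 and 5.89 CPM after nutlin, and only 1 nutlin sample lay above the vehicle range. The LFC was 0.21 ± 0.13 SE (adjusted p = 0.152, edgeR), with a 95% interval from −0.04 to 0.47. With the filterByExpr filter MYCL was called (LFC 0.29, adjusted p = 0.039, edgeR), and over all alternatives run its adjusted p was 0.039 to 0.292. Set against MYCN, both genes stayed small. MYCN had a mean of 1620 TPM ± 128 (SD, n = 10) in vehicle and 1203 ± 50.1 after nutlin, and its LFC was −0.41 ± 0.04 SE (adjusted p = 2.45e-10, edgeR). MYC amounted to 0.012 to 0.029% of the TPM of MYCN in vehicle samples and to 0.041 to 0.24% in nutlin samples. The ratio of MYCN to the sum of MYC and MYCL went from a mean of 812 ± 186 to 326 ± 92.9 (SD, n = 10 each), and its ranges in the 2 groups did not overlap.

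**Figure D2:**
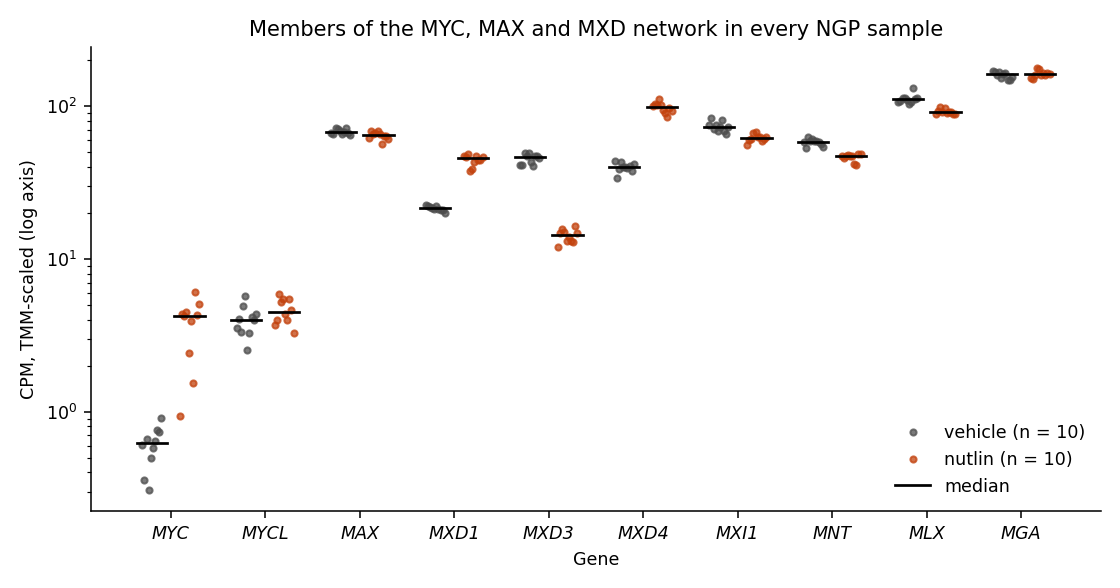
CPM of each member in every sample on a log axis, 10 vehicle and 10 nutlin samples, with the median of each group as a bar. MYC, MXD1 and MXD4 sit higher in every nutlin sample, MXD3, MNT and MLX lower, and the other 4 members overlap.

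MAX, the obligate partner, barely moved. It was at 64.8, 67.7 and 72.1 CPM in vehicle and 56.4, 64.9 and 68.9 CPM after nutlin. Of the nutlin samples, 5 lay below the vehicle range and the other 5 within it. The LFC was −0.09 ± 0.04 SE (adjusted p = 0.0428, edgeR), a change of −5.79%, and this call was lost under DESeq2 size factors (adjusted p = 0.357), with an adjusted p of 0.0303 to 0.811 over all alternatives run. MLX, the MAX-like partner of MLXIP, fell by a little more. Its values were 104, 111 and 132 CPM in vehicle and 89.1, 91.7 and 99.1 CPM after nutlin, with no overlap. On the TPM scale the groups overlapped, at 54.5 to 65.8 TPM in vehicle and 48.3 to 55.0 TPM after nutlin. The LFC was −0.28 ± 0.04 SE (adjusted p = 1.25e-07, edgeR). Vehicle replicate 10 stood above the other vehicle samples, and without it the LFC was −0.24.

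Among the MXD genes, which encode the repressors that compete with MYC for MAX, the direction differed from gene to gene. MXD1, long known as MAD1, went from 20.2, 21.5 and 22.6 CPM in vehicle to 37.9, 45.6 and 48.7 CPM after nutlin. Every nutlin sample was above every vehicle sample, and the vehicle samples varied by as little as 3.33%. The rise was 2.07-fold (LFC 1.05 ± 0.05 SE, adjusted p = 1.88e-18, edgeR). MXD4 went from 33.7, 39.8 and 43.7 CPM to 84.5, 98.9 and 111 CPM. Again the groups were apart, and the rise was 2.45-fold (LFC 1.29 ± 0.05 SE, adjusted p = 1.88e-20, edgeR).

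MXD3, which unlike its relatives is known for expression in dividing cells, took the opposite course. It was at 40.4, 46.3 and 49.7 CPM in vehicle and at 12, 14.3 and 16.3 CPM after nutlin, so that the highest nutlin sample did not come near the lowest vehicle sample. The vehicle level was 3.19 times the nutlin level (LFC −1.68 ± 0.05 SE, adjusted p = 1.61e-21, edgeR). MXI1, the fourth MXD gene (also called MXD2), fell far less, from 65.5, 73.4 and 83.7 CPM to 56.1, 62.0 and 68.1 CPM. Of the nutlin samples, 8 lay below the vehicle range. The LFC was −0.24 ± 0.04 SE (adjusted p = 9.49e-06, edgeR), and −0.13 with an offset for effective length. Over all alternatives run its adjusted p was 5.26e-06 to 0.0403, so the call held but in places only narrowly. A test of the difference between MXD genes was not made, but the 95% intervals of their LFC lie apart: 0.96 to 1.14 for MXD1, 1.2 to 1.38 for MXD4, −1.78 to −1.57 for MXD3 and −0.33 to −0.16 for MXI1.

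Per length, these changes nearly cancelled in the sum of the family. The 4 MXD genes added up to 100.02 TPM ± 6.96 in vehicle and 97.1 ± 7.55 after nutlin (SD, n = 10 each), with overlapping ranges of 89.0 to 108 and 83.7 to 109 TPM. Their make-up was another. MXD3 made up 43.2% ± 3.59 of the family TPM in vehicle and 13.3% ± 1.38 after nutlin, MXD4 17.0% ± 2.01 and 42.2% ± 2.04, and MXD1 4.59% ± 0.57 and 11.2% ± 0.95. In each of these 3 genes the shares of the 2 groups did not overlap. The share of MXI1 was 35.1% ± 2.42 and 33.3% ± 2.55 and overlapped. The ratio of the family sum to the TPM of MAX was 2.15 ± 0.15 in vehicle and 2.33 ± 0.25 after nutlin, again with overlap.

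**Figure D3:**
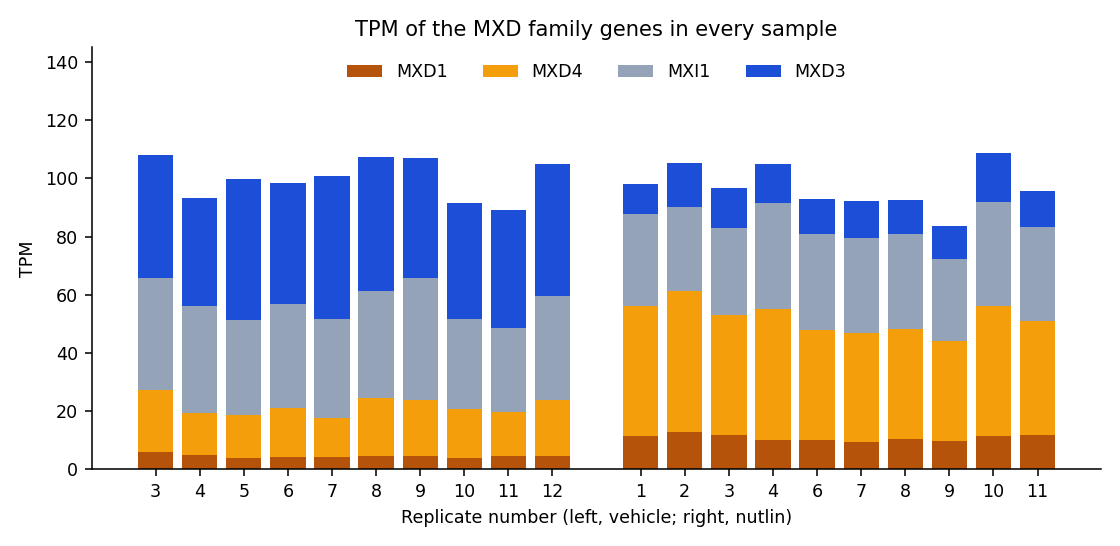
TPM of MXD1, MXD4, MXI1 and MXD3, stacked for each of the 10 vehicle samples (left) and the 10 nutlin samples (right). The total height is alike in both groups, at 83.7 to 109 TPM over all samples, while MXD3 takes a smaller part and MXD4 and MXD1 a larger part in every nutlin sample.

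MNT and MGA are partners of MAX outside the MXD family. MNT, a repressor present in resting and dividing cells alike, went from 53.5, 58.6 and 63.2 CPM in vehicle to 41.5, 47.4 and 48.6 CPM after nutlin, and every nutlin sample was below every vehicle sample. The LFC was −0.33 ± 0.04 SE (adjusted p = 9.66e-09, edgeR), a change of −20.5%. MGA, which joins a MAX-binding domain to a T-box and is part of the polycomb complex PRC1.6, was at 148, 162 and 170 CPM in vehicle and 150, 162 and 177 CPM after nutlin. The ranges overlapped almost fully, and the LFC was 0.03 ± 0.04 SE (adjusted p = 0.536, edgeR) with a 95% interval of −0.04 to 0.10. With the filterByExpr filter the LFC was 0.10 (adjusted p = 0.00771, edgeR), and over all alternatives run the adjusted p was 0.00771 to 0.674. Its transcripts shifted against each other, as described next.

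The files hold 88 transcripts of the 10 genes, of which 44 were abundant enough to be tested one by one. By edgeR's quasi-likelihood test 13 of them rose and 11 fell, beside 25.9% and 22.9% of all transcripts tested. Whether a transcript changed against the rest of its gene was tested with limma on the log2 ratio of the counts. Of 43 member transcripts with such a ratio, 14 passed 5% FDR, 9 upwards and 5 downwards, beside 28.7% of all. This test was chosen after the data were seen. The test planned at first, diffSpliceDGE, called 2 up and 2 down, beside 3928 of all 45742 transcripts. In MXD4 the 5 transcripts rose in parallel, with LFC from 1.24 to 1.62, and none changed against the rest. The main one, MXD4-201, held 74.1% ± 2.16 of the gene's counts in vehicle and 74.4% ± 1.77 after nutlin. The retained-intron form MXD4-203 held 18.5% and 18.3%. In MXD3 the 4 abundant transcripts fell, among them MXD3-203 (LFC −1.33) and the retained-intron form MXD3-206 (LFC −1.65), which held the largest share, 35.9% ± 2.73 and 34.7% ± 5.23. None of these 4 passed the test against the rest of MXD3, though MXD3-203 did with a pseudocount of 5 (ratio change 0.41, adjusted p = 0.0362, limma). MXD1 was read almost entirely from MXD1-201, with 98.5% ± 1.28 and 95.1% ± 1.38 of its counts. No transcript of MYC was abundant enough to be tested.

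In MGA the main transcripts changed places. MGA-201 held 21.6% ± 12.9 of the counts of the gene in vehicle, with a range of 4.42 to 44.9% that shows how uneven its share was among replicates, and 44.6% ± 7.90 after nutlin, with a range of 32.8 to 55.8%. Its log2 ratio to the rest rose by 1.85 ± 0.44 SE (adjusted p = 0.00304, limma). MGA-210 went the other way, from 38.9% ± 7.49 to 20.5% ± 4.12, with a ratio change of −1.31 ± 0.19 SE (adjusted p = 2.39e-05, limma). The ranges of both transcripts overlapped between the groups. MGA-202 also lost share, from 12.3% ± 9.63 to 4.31% ± 3.92 (ratio change −2.45 ± 0.84 SE, adjusted p = 0.0341, limma), and MGA-207 held 20.3% ± 2.17 and 22.4% ± 2.33 (adjusted p = 0.156, limma).

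MGA-202, MGA-205 and MGA-210 share a stretch that MGA-201 and MGA-207 lack: 1 exon of theirs starts 147 bases earlier, at chr15:41739906-41740052 of GRCh38 on the plus strand, inside the coding sequence annotated for MGA-210, where it would add 49 codons. The stretch is printed because it is 1 difference between MGA-210, which lost share, and MGA-201, which gained it.
MGA extension: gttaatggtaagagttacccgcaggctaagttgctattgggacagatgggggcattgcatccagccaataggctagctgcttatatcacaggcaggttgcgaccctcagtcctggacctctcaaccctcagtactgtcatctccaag
Together the 3 transcripts with the stretch held 56.9% ± 12.1 of the MGA counts in vehicle and 31.5% ± 6.99 after nutlin, with ranges of 35.7 to 74.5% and 19.2 to 40.4%. The pair without it held 41.9% ± 12.3 and 67.0% ± 7.01. These sums are a description with no test, since the grouping was made after the shift had been seen, and in them MGA-205 went the other way from its companions, from 5.69% to 6.63%. Estimated counts split reads among overlapping transcripts, so that the shares carry the error of that split.

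**Figure D4:**
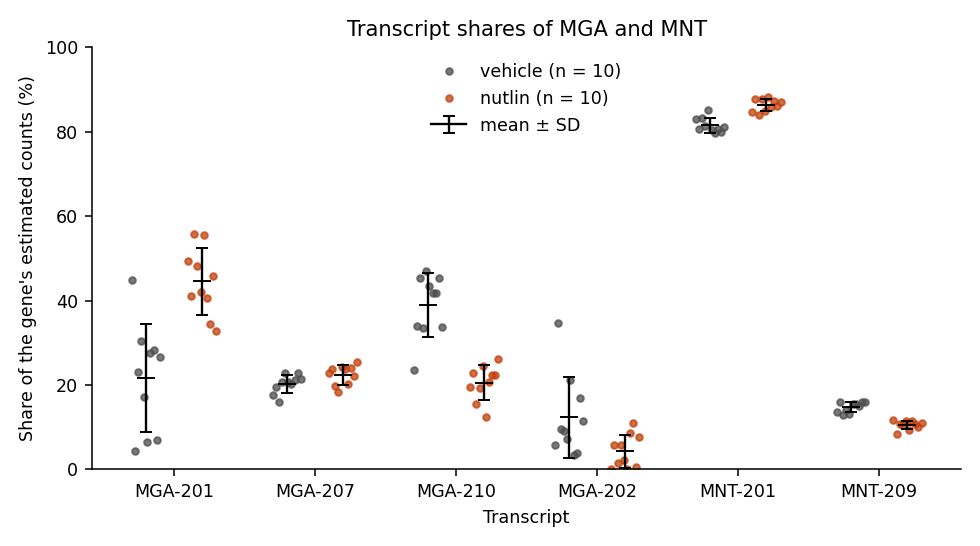
Share of the estimated counts of the gene held by 4 MGA transcripts and 2 MNT transcripts in each of 10 vehicle and 10 nutlin samples, with mean ± SD. MGA-201 is higher and MGA-210 lower after nutlin with overlap between groups, while MNT-209 is lower in every nutlin sample.

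In MNT the shift was small but tight. The coding transcript MNT-201 held 81.5% ± 1.77 in vehicle and 86.3% ± 1.45 after nutlin, and its ratio to the rest rose by 0.62 ± 0.08 SE (adjusted p = 4.18e-06, limma). The retained-intron form MNT-209 went from 14.8% ± 1.27 to 10.5% ± 1.03, each nutlin sample below each vehicle sample, with a ratio change of −0.55 ± 0.09 SE (adjusted p = 6.65e-05, limma). The fall of MNT was thus uneven: the LFC was −0.17 for MNT-201 and −0.73 for MNT-209. Smaller gains of share that passed the test were found for MYCL-201 (13.7% to 22.4%), MAX-202 (7.63% to 10.8%) and the retained-intron form MLX-207 (11.1% to 14.5%). MYCL-201 rose as a transcript (LFC 0.95 ± 0.17 SE, adjusted p = 0.00011, edgeR) although MYCL as a whole did not pass. MXI1-202 lost share, from 42.5% ± 3.54 to 37.4% ± 4.23 (adjusted p = 0.0392, limma).

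The order of the members by level is given per length, in TPM, since counts favour long transcripts. In vehicle MLX came first with 62.6 ± 3.26 TPM (SD, n = 10), followed by MAX (46.6 ± 3.91), MXD3 (43.2 ± 3.98) and MXI1 (35.2 ± 3.70). The ranges of MAX and MXD3 overlapped, and so did those of MXD3 and MXI1. Then came MNT (19.4 ± 2.01), MGA (17.2 ± 2.39) and MXD4 (17.1 ± 2.68), whose ranges overlapped in turn. MXD1 at 4.59 ± 0.65, MYCL at 1.74 ± 0.37 and MYC at 0.33 ± 0.07 TPM were each clear of their neighbours. After nutlin MXD4 stood at 41.0 ± 4.47 TPM, its range overlapping those of MAX (42.0 ± 5.06) and MXI1 (32.2 ± 2.69). MLX had the highest mean, 52.9 ± 1.94 TPM, but its range overlapped that of MAX and just met that of MXD4. MXD3 stood at 13.0 ± 1.98 TPM and overlapped MNT (14.3 ± 1.74) and MXD1 (10.9 ± 1.12). The range of MGA (17.4 ± 0.88) overlapped those of MNT and MXD3. MYCL (2.03 ± 0.36) and MYC (1.90 ± 0.80) closed the order and overlapped. TPM values depend on which transcripts are in the total: with protein-coding and lncRNA genes alone, the members summed to 319 TPM in vehicle and 316 after nutlin, and with all transcripts of the files to 248 and 228.

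The genes that work with the network were taken from lists of partners and targets. All 14 genes of the SIN3-HDAC repressor, through which MXD and MNT act, fell, with a median LFC of −0.68, beside 26.5% of all genes and 45.3% of those that averaged 1 CPM or more. RBBP7, a histone chaperone of the complex, fell most (LFC −1.59 ± 0.04 SE, adjusted p = 7.25e-25, edgeR), followed by ING2 (−1.14) and SAP30 (−1.08). SIN3A itself had an LFC of −0.84 and SIN3B of −0.09. Of 13 genes of PRC1.6, the complex that holds MGA, 12 fell and RYBP did not pass, with a median LFC of −0.63, against the same background of 26.5% and 45.3% falling. The heterochromatin proteins CBX1 (−1.45 ± 0.03 SE) and CBX3 (−1.06 ± 0.04 SE) and the E2F partner TFDP1 (−1.09 ± 0.04 SE) led them, whereas MGA did not pass the test. HDAC1 and HDAC2 belong to both lists, and WDR5 to PRC1.6 and the next list.

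Of 17 cofactors of MYC and regulators of its turnover, 12 fell and 3 rose, with a median LFC of −0.51, beside 45.3% falling and 34.8% rising among genes that averaged 1 CPM or more. AURKA, a mitotic kinase that protects MYCN from degradation, was 106 CPM ± 11.5 in vehicle and 17.5 ± 1.5 after nutlin (SD, n = 10 each), an LFC of −2.59 ± 0.06 SE (adjusted p = 4.64e-25, edgeR). CIP2A, which shields MYC from dephosphorylation (−1.47), and USP28, a deubiquitinase that opposes FBXW7 (−1.46), followed. FBXW7, the ubiquitin ligase adaptor that marks MYC and MYCN for degradation, rose (LFC 0.90 ± 0.07 SE, adjusted p = 6.67e-13, edgeR), as did the acetyltransferase KAT2A (0.43) and ZBTB17, the zinc finger partner through which MYC represses genes (0.32). TRRAP and EP400 did not pass.

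Of 25 known MYC target genes, 20 fell, 3 rose and SHMT2 and BOP1 did not pass, with a median LFC of −0.49, set against the same 45.3% and 34.8%. TERT (−1.90 ± 0.14 SE), LDHA (−1.70 ± 0.05 SE) and HSPD1 (−1.14 ± 0.04 SE) fell most, which encode telomerase, lactate dehydrogenase and a mitochondrial chaperone. CCND2 (1.30 ± 0.25 SE), a D-type cyclin with a mean of 0.64 CPM in vehicle and 1.54 CPM after nutlin, the amino acid transporter SLC7A5 (0.90 ± 0.05 SE) and POLR1B (0.21 ± 0.04 SE) rose. Of the 6 partners and targets of MLX, 4 fell and 1 rose, with a median LFC of −0.16, where 45.3% and 34.8% did so among expressed genes at large. TXNIP, the glucose-responsive target of MLX with MLXIP, fell from 65.9 CPM ± 3.27 to 25.8 ± 3.81 (LFC −1.35 ± 0.06 SE, adjusted p = 3.91e-18, edgeR), and ARRDC4, its relative, had an LFC of −0.19. MLXIP itself had an LFC of −0.18 and KLF10 of 1.01, while MLXIPL did not pass. MKI67 fell by 2.87 on the log2 scale in the same samples, and its part in the fall of these lists was not tested. No list was tested as a whole.

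**Figure D5:**
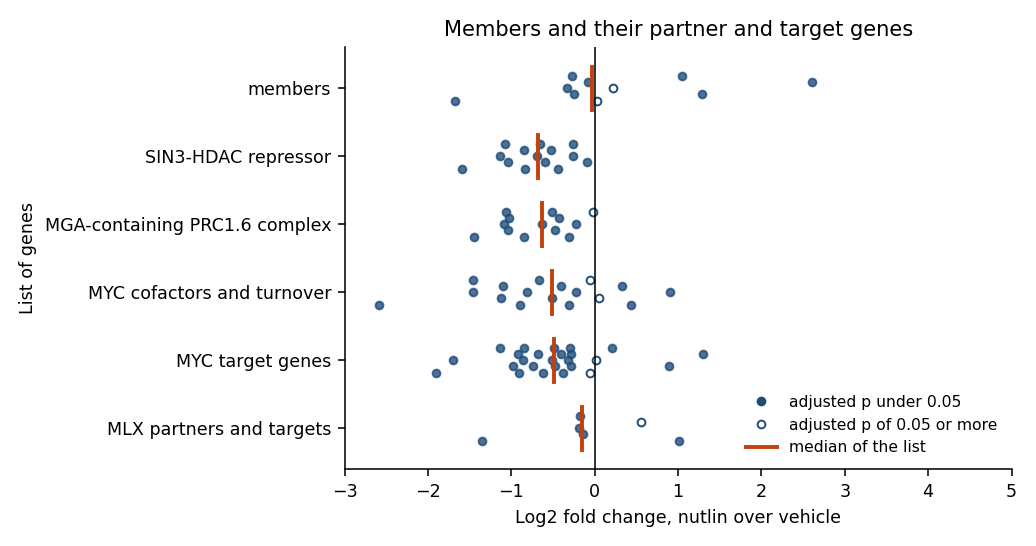
LFC of the 10 members and of the genes in 5 lists of partners and targets, 1 point a gene, filled where the gene passed 5% FDR by edgeR, with the median of each list as a bar. The medians of the lists lie between −0.68 and −0.16, that of the members at −0.03, with MYC, MXD4 and MXD1 above 1.

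For the member with the largest rise and the one with the largest fall, the genes most alike were sought among 15167 genes that averaged 1 CPM or more, by the Pearson correlation of log2 CPM over the 20 samples after the mean of each condition was taken off. Closest to MYC were MYB (r = 0.78), METTL18 (r = 0.73) and TOM1L1 (r = 0.72). Several of these values lie near the floor: MYC in vehicle (0.31 to 0.90 CPM), MYB after nutlin (0.31 to 0.99 CPM) and TOM1L1 after nutlin (1.03 to 2.47 CPM). METTL18 was higher, at 6.74 to 10.8 CPM after nutlin. The part of counting error in these correlations was not tested. MYB, another proto-oncogene, had an LFC of −3.81 and so changed in the opposite direction between the conditions. Closest to MXD3 were PHF19 (r = 0.84), SPC24 (r = 0.79) and GPAA1 (r = 0.78). PHF19, a polycomb subunit, and SPC24, a kinetochore subunit, fell with LFC of −2.52 and −2.81. The values come from the same 20 libraries, and the highest of so many correlations is high in part by choice.

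Some members overlap other genes on the annotation, and whether strand was used in the counting is not given in the sources used here. MXD3 overlaps RAB24 on the same strand (LFC 0.22) and PRELID1 on the other (−1.14). MLX overlaps PSMC3IP (−2.12) and MAX overlaps FNTB (−0.74), each on the other strand, and MXD1 overlaps SNRNP27 on the same strand (−0.53). MXD1 rose and MXD3 fell against the direction of their same-strand neighbours. For MLX, MXD3 and MAX, reads shared with the gene on the other strand would move in the same direction as the member, and their part was not tested.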

How the data were processed

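RNA-seq of NGP cells, 10 vehicle and 10 nutlin samples, was used. The authors quantified TruSeq stranded poly(A)+ read pairs with kallisto 0.42.4 on GRCh38 transcripts of Ensembl release 85. They deposited lengths, effective lengths, estimated counts and TPM for 198968 transcripts. The deposited estimated counts are raw. The TPM values deposited by the authors are scaled by effective length and library size, and the effective lengths are in bases. Of the transcripts, 191106 (96.05%) were matched to genes of GENCODE release 44, which covered 95.7 to 96.8% of each sample's counts. The remaining 7862 were not used.

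Estimated counts were summed per gene and rounded. Tests covered genes of the types protein_coding and lncRNA that had 1 count or more per condition, with edgeR 4.0.16 in R 4.3.3 (quasi-likelihood F-test, TMM, condition as the only term, Benjamini-Hochberg adjustment over all genes at 5% FDR). SE is the absolute LFC over the square root of F. CPM values carry the TMM scaling. Transcripts were tested likewise after filterByExpr with a minimum count of 10. A diffSpliceDGE test of transcript usage was planned, but it made many false calls on simulated data. In its place limma 3.58.1 was run on the log2 ratio of each transcript to the rest of its gene (pseudocount 0.5). This choice was made after the data were seen. The simulated counts were drawn for each transcript on its own, so errors in splitting reads among transcripts were not tested for either method. TPM values were not tested. DESeq2 1.42.0 served as an alternative. The gene fit was tested on simulated data. Python 3.11.15, numpy 2.4.6, pandas 2.3.3 and matplotlib 3.10.9 were used for tables and plots.

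The members and lists were chosen with earlier results of these data known. Named from each list were at most 3 genes up and 3 down with the largest absolute LFC among called genes averaging 1 CPM or more, and of the members the transcripts with at least 10% of the counts of the gene in either condition. SIN3A, SIN3B, MLXIPL, MGA-205 and the genes that did not pass were named after their values were seen. Depth limits MYC most, and the SE carries both counting error and the spread between replicates. No 2 samples held identical values. A further marker gene is not reported here.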

Additional observations from a re-analysis of the deposited data

Results flagged for a closer look

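The CPM of the members, and their transcript shares except those of MYC, were searched in each condition for a sample that stood apart from the other 9. Of 68 groups of values examined, 1 had such a sample, where chance gives about 1 in 20, or 3.4 here. This was vehicle replicate 10 for MLX, at 132 CPM, while the other vehicle samples were at 104 to 114 CPM. Its distance to the next sample was 0.66 of the range of the group. Without it the LFC of MLX was −0.24 (adjusted p = 4.25e-08, edgeR), and every nutlin sample was still below every vehicle sample by CPM. Among the MYC shares, which were not searched, MYC-201 held 68.8% in vehicle replicate 4, on 3.44 estimated counts. In every other vehicle sample it held at most 22.1%.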

How the results depend on the processing

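Of 90 LFC values of the members under 9 alternatives, 81 kept their direction and their side of 5% FDR, and none changed direction. Every alternative scaled the libraries by TMM or DESeq2 factors, so the direction without such scaling was not tested. MAX was the only member whose call was lost: with DESeq2 size factors, the DESeq2 Wald test (adjusted p = 0.352), filterByExpr (0.811), the library size of all transcripts (0.126) and 1% FDR, and without any 1 of 13 samples (highest adjusted p = 0.134). The LFC of the other called members ranged, without each sample in turn, from 2.50 to 2.73 for MYC, 1.04 to 1.09 for MXD1, 1.27 to 1.31 for MXD4, −1.69 to −1.65 for MXD3, −0.25 to −0.22 for MXI1, −0.34 to −0.30 for MNT and −0.29 to −0.24 for MLX. With filterByExpr 5 members were called up in place of 3, MYCL (LFC 0.29, adjusted p = 0.039) and MGA (0.10, 0.00771) being added, and 13123 of 16338 genes were called. Recomputed over protein-coding and lncRNA genes, the summed TPM of the members was 319 in vehicle and 316 after nutlin, in place of 248 and 228.

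The 8 replicate numbers that occur in both conditions did not pair the samples: deviations of same-numbered samples correlated at −0.04 to 0.07. With the replicate block over these 16 samples, 3 members were called up and 4 down, MAX being lost (adjusted p = 0.166; 0.111 in the same samples without the block), and 14317 genes in place of 16275. Transcript usage by log ratio gave 5 up and 2 down with the block in place of 9 and 5, the calls lost being MNT-205 (adjusted p = 0.0506), MXI1-202 (0.0531), MGA-202 (0.0582), MXD3-202 (0.0767), MYCL-201 (0.0927), MLX-207 (0.130) and MXI1-207 (0.146). The planned diffSpliceDGE test called 2 up and 2 down, 1 up with the block, 1 up with all transcripts of at least 1 count in each condition, and 4 up and 6 down as limma diffSplice. The log ratio gave 9 up and 5 down, and 10 and 5 with a pseudocount of 5, MXD3-203 being added (adjusted p = 0.0362, limma). Over all 45742 transcripts, diffSpliceDGE called 3928, or 2540 with the block, and limma diffSplice 10661. The log ratio called 13135 of them, 8268 with the block and 14921 with a pseudocount of 5. With all transcripts of at least 1 count in each condition, diffSpliceDGE called 3769 of 108800. The member counts thus differ beside totals that differ too. The cause of these differences was not tested. As single transcripts, MXI1-203 was lost with the block (adjusted p = 0.116), and MGA-202, not called by edgeR, was called by limma voom (0.0195) and with the block (0.0462).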

Other observations

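Over the 20 samples, with the mean of each condition taken off, MGA and MXI1 had the highest correlation of the 45 pairs of members (r = 0.82), followed by MNT with MAX (r = 0.53) and MNT with MXD4 (r = 0.50), and MXD1 with MAX had the lowest (r = −0.41). These values are a description, since the genes were measured in the same libraries. Among the minor transcripts, MXI1-210 (1.07% to 3.33% of the MXI1 counts), MXI1-207 (2.29% to 4.15%), MXD3-202 (2.19% to 4.98%) and MLX-204 (2.64% to 3.47%) gained share and MNT-205 (2.79% to 1.61%) lost share by the limma test of the log ratio. They were named after their values were seen.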
